A study of Mus musculus with 8 samples.

Results

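The 10 genes described here belong to tendon and to the myotendinous junction, the zone where muscle fibres end on tendon. They were read by symbol from tables of 24848 genes, and all 10 (Col22a1, Thbs4, Tnc, Tnmd, Scx, Mkx, Fmod, Comp, Col12a1 and Prg4) had a row and passed the filter on low counts that left 13569 genes. The genes were chosen by function and on their expected counts and TPM in these same libraries, where Col22a1 and Tnc had been seen lower with praliciguat. The comparison of praliciguat with placebo is therefore given for the 10 genes as a description, without a test.

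RNA was sequenced from the tibialis anterior, a muscle at the front of the lower leg, of male mice of the Leprdb/db genotype, a model of obesity and diabetes in which the leptin receptor does not signal. Every animal had undergone hind limb ischemia surgery, and muscle was collected 28 days afterwards. One group of 4 libraries came from mice on a control diet (placebo) and the other 4 from mice on a diet with 75 ppm praliciguat, aimed at the plasma peak of 10 mg/kg/day by mouth and fed for 31 days from day -3. Praliciguat stimulates soluble guanylate cyclase, the enzyme that makes cGMP in response to nitric oxide. The labels read here state no age, non-ischemic muscle was not analysed here, and nothing in the labels states that each library is a different mouse, so the spread between libraries may in part be technical.

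Force leaves a muscle fibre at its folded end, where integrins and dystrophin tie the cytoskeleton to a basement membrane, and passes through a collagenous matrix into the tendon. Col22a1 is made by muscle cells at that end, whereas Tnmd, Scx and Mkx are known from tendon fibroblasts (tenocytes). Tnc, Thbs4, Comp, Fmod, Col12a1 and Prg4 encode matrix or secreted proteins that tendon, its sheath or connective tissue fibroblasts make. In whole muscle, fewer cells of a type and less RNA per cell cannot be told apart.

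Total expected counts per library ran from 21099764 to 31896205. Genes of the muscle fibre (8 of 8 tested, from Ckm to Des) summed to 131354 to 159526 CPM in placebo, where CPM is a count scaled to the size of its library. With praliciguat they summed to 175201, 176706, 133079 and 150823 CPM in replicates 1 to 4. The sums of replicates 1 and 2 thus lay above every placebo library, but the genes of the list differed in this. Myh4 had 70703 and 66153 CPM in those replicates and 32420 to 53235 CPM in placebo. In praliciguat replicate 1, Acta1 (31876 CPM) and Myh1 (8249 CPM) lay below every placebo library. Title numbers of the samples fall into 2 runs, here called lower and upper, each holding 2 placebo and 2 praliciguat libraries (replicates 1 and 2 in the lower, 3 and 4 in the upper). What these numbers stand for is not stated in the labels. Praliciguat replicate 3 stood apart in several of the lists below, so values without it are given beside many of the results. Results printed without such a value may depend on it as well.

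Sequence upstream of the start site was read for Fmod, Tnc, Thbs4 and Tnmd, the 4 of the 10 genes with a window in the table used. They show the sequence before the start of matrix and tenocyte genes whose levels are described below. The windows hold the 250 bases before a RefSeq start in GRCm38.p6, the assembly of mm10, and are written 5′ to 3′ on the strand of the gene. They lie at chr1:134037004-134037253 on the plus strand (Fmod), chr4:64047016-64047265 on the minus strand (Tnc, the outer of its start sites), chr13:92794819-92795068 on the minus strand (Thbs4) and chrX:133850758-133851007 on the plus strand (Tnmd). Capitals mark a match to any of 4 motifs on either strand. These were CAGNTG, a form of the E-box that basic helix-loop-helix factors such as scleraxis bind, the TATA box as TATAAA, the GC box as GGGCGG and the core of the MCAT element as CATTCC.
Fmod: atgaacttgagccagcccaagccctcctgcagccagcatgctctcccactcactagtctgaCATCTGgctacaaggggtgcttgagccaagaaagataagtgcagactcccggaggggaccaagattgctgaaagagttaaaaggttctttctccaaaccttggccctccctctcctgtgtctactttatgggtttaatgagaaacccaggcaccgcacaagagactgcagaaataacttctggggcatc
Tnc: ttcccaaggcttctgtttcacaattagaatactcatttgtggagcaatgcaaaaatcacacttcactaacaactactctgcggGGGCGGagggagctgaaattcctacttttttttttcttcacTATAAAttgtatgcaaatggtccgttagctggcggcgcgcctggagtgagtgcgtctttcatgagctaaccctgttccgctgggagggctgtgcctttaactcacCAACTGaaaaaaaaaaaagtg
Thbs4: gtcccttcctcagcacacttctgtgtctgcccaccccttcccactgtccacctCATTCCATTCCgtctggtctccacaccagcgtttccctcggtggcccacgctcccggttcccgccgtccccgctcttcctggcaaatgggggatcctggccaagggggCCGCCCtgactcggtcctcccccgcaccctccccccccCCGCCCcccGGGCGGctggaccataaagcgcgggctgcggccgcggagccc
Tnmd: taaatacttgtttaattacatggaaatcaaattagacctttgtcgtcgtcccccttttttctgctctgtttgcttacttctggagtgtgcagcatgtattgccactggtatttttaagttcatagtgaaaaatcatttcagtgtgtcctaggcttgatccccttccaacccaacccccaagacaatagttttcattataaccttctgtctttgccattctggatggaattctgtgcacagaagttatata
An E-box of this form stood in the windows of Fmod (189 bases before the start) and Tnc (21 bases), against 44.8% of all 32851 mouse windows of this length. TATAAA occurred in the Tnc window (12.4% of all windows). GGGCGG occurred once in Tnc and 3 times in Thbs4 (32.7% of all windows), and CATTCC at 2 overlapping places in Thbs4 (12.6%). The Tnmd window held none of the 4. Base composition differed as well: G and C made up 38.4% of the Tnmd window, 44.8% of Tnc, 51.2% of Fmod and 70.8% of Thbs4, with a median of 52.4% over all windows. No motif stood in all 4 windows, and a match is a description of sequence, not a site of binding.

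Per transcript length, the 10 genes covered a wide range in placebo muscle. In TPM, a level in which counts are divided by gene length, Thbs4 stood first with 106 ± 25.5 and Fmod next with 93.1 ± 19.8 (SD, n = 4 each), and their libraries overlapped. After a gap came Tnmd (25.4 ± 10.05), Col22a1 (15.9 ± 5.75), Scx (10.8 ± 1.69), Comp (10.2 ± 5.05) and Prg4 (8.76 ± 1.40), each overlapping its neighbour in this order. Tnc (3.91 ± 1.27) lay below Prg4 without overlap and was followed by Col12a1 (2.10 ± 0.496), which overlapped it. Mkx (0.700 ± 0.236) lay below Col12a1 without overlap. In praliciguat muscle every neighbouring pair of this order overlapped.

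**Figure D1:**
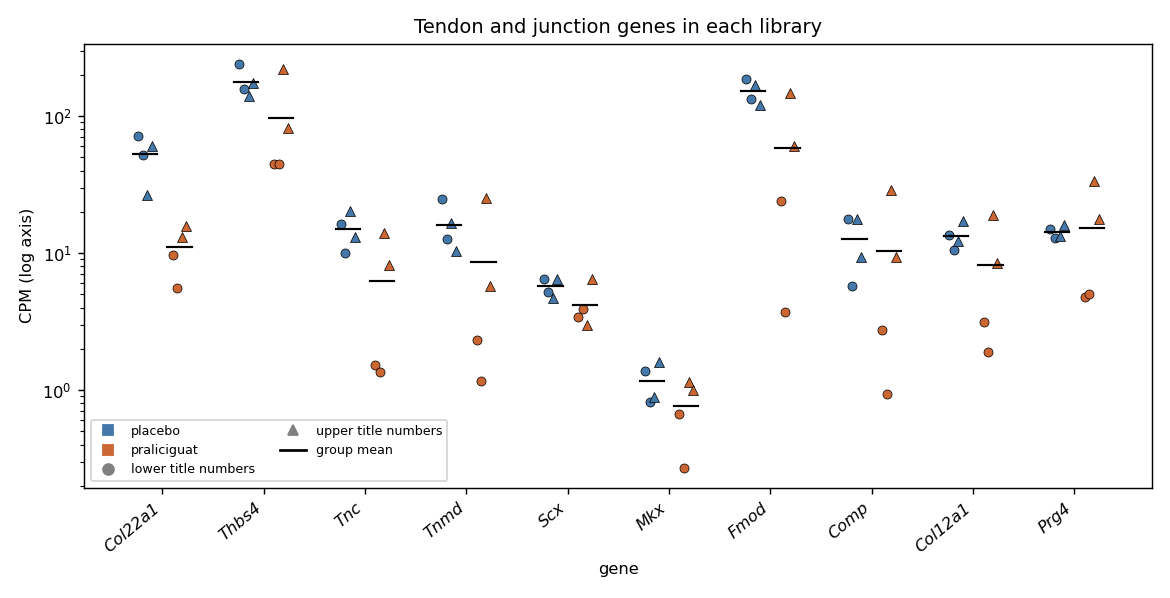
CPM of the 10 genes in each library on a log axis, placebo in blue and praliciguat in orange. Circles are libraries of the lower title numbers, triangles those of the upper, and bars are group means. Col22a1 is the gene whose 4 praliciguat libraries (5.52 to 15.7 CPM) all lie under the 4 placebo libraries (26.5 to 71.7 CPM), and in the other genes 1 or more praliciguat triangles reach the placebo range.

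Col22a1 encodes type XXII collagen, a fibril-associated collagen of the junction that helps to hold fibre ends to tendon. Its gene spans 355185 bases of the minus strand on chromosome 15, from 71795795 to 72150979. Its level was 71.7, 51.9, 26.5 and 61.0 CPM in placebo replicates 1 to 4 and 9.65, 5.52, 13.2 and 15.7 CPM in praliciguat replicates 1 to 4. All 4 praliciguat libraries lay below the lowest placebo library. Group means were 52.8 ± 19.3 and 11.01 ± 4.42 CPM (SD, n = 4), a log2 fold change of -2.26 ± 0.38 SE, or 4.78-fold lower. With 1 library left out the log2 fold change ranged from -2.49 to -2.04. The difference of mean log2 CPM was -3.05 in the lower run and -1.48 in the upper run. Per length, the levels were 15.9 ± 5.75 and 3.28 ± 1.40 TPM (SD, n = 4).

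Tnc encodes tenascin-C, a large glycoprotein of the matrix that is sparse in resting muscle and is made at the junction, in tendon and in wounds. It lies on chromosome 4 from 63959785 to 64047015, on the minus strand. Its level was 16.4, 10.002, 20.2 and 13.02 CPM in placebo and 1.53, 1.36, 14.1 and 8.16 CPM with praliciguat. Praliciguat replicates 1 and 2 were far below every placebo library, replicate 4 was just below them, and replicate 3 lay among them. The log2 fold change was -1.23 ± 0.68 SE over all 8 libraries and -2.0 without praliciguat replicate 3. In the lower run the difference was -3.09 and in the upper run -0.59.

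Thbs4 and Comp encode thrombospondin-4 and cartilage oligomeric matrix protein, related pentameric glycoproteins that bind collagen in tendon. Thbs4 had 239, 157, 140.05 and 174 CPM in placebo and 44.5, 44.9, 219 and 82.1 CPM with praliciguat. Its praliciguat replicate 3 lay between the highest and the next placebo library, and the other 3 praliciguat libraries were below all of placebo. Comp had 17.7, 5.72, 17.6 and 9.36 CPM in placebo and 2.75, 0.933, 28.7 and 9.33 CPM with praliciguat. Here praliciguat replicate 3 was the highest of all 8 libraries and replicate 2 the lowest. Log2 fold changes were -0.86 ± 0.50 for Thbs4 and -0.26 ± 0.86 for Comp (SE). Without praliciguat replicate 3 they were -1.64 and -1.53, and without praliciguat replicate 2 the value of Comp was 0.12.

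Fmod encodes fibromodulin, a small leucine-rich proteoglycan that controls the growth of collagen fibrils. Its level was 186, 134, 169 and 120.3 CPM in placebo and 23.9, 3.73, 147 and 60.6 CPM with praliciguat. The placebo libraries were within a factor of 1.54 of each other, whereas the praliciguat libraries spanned a factor of 39.3. Over all libraries the log2 fold change was -1.37 ± 0.82 SE, and -2.37 without praliciguat replicate 3. Col12a1, the chain of type XII collagen that coats fibrils in tendon and fascia, had 13.5, 10.5, 12.3 and 17.3 CPM in placebo and 3.14, 1.91, 19.1 and 8.41 CPM with praliciguat. Its praliciguat libraries spanned a factor of 10.01 and praliciguat replicate 3 exceeded every placebo library. Its log2 fold change was -0.71 ± 0.61 SE, or -1.57 without that library.

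Prg4 encodes lubricin, the lubricating proteoglycan of joint surfaces and tendon sheaths. It had 15.1, 12.9, 13.3 and 16.1 CPM in placebo, the narrowest spread of the 10 genes in that group. With praliciguat it had 4.75, 5.01, 33.5 and 17.6 CPM, so that the lower run lay below all placebo libraries and the upper run above all of them. The log2 fold change over 8 libraries was 0.09 ± 0.57 SE, with -1.51 in the lower run and 0.73 in the upper run, and it turned to -0.65 without praliciguat replicate 3. Its effective length, which RSEM derives from the mix of 2 listed transcripts, varied from 2741 to 3586 bases among libraries. Exons of Prg4 overlap those of Tpr on the opposite strand. No source read here states the strand setting of the counting, so reads of the pair may not be separate. Tpr itself ranged from 118 to 183 CPM. Exons of Col22a1 and Tnc likewise overlap those of an antisense or opposite-strand transcript (Gm16308 and 8030451A03Rik), which had no row here. Mkx shares exons with AC148004.2 on its own strand, a gene with no row here, so a stranded count would not separate that pair.

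Tnmd encodes tenomodulin, a membrane glycoprotein that marks mature tenocytes. Its level was 24.9, 12.8, 16.6 and 10.3 CPM in placebo and 2.31, 1.17, 25.3 and 5.79 CPM with praliciguat. Praliciguat replicate 3 was the highest of all 8 libraries, by a small margin over placebo replicate 1, and the other 3 were below every placebo library. The log2 fold change of -0.89 ± 0.81 SE became -2.37 without praliciguat replicate 3.

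The transcription factors of the tendon lineage had the lowest mean CPM of the 10 in each group. Scx, the basic helix-loop-helix factor scleraxis, had 6.46, 5.24, 4.70 and 6.46 CPM in placebo and 3.41, 3.89, 3.003 and 6.495 CPM with praliciguat, with 3 praliciguat libraries below all placebo libraries and replicate 4 level with the highest of them. Praliciguat replicate 3 held the lowest Scx of all. That gave a log2 fold change of -0.44 ± 0.25 SE. Scx lies within the span of Bop1 on the opposite strand, without shared exons, and Bop1 was even at 20.8 to 24.8 CPM. Mkx, the homeobox factor Mohawk, had 31, 24, 26 and 44 expected counts in placebo and 17, 7, 39 and 28 with praliciguat, which is 0.272 to 1.60 CPM. At these counts a log2 fold change of -0.59 ± 0.44 SE rests on few reads.

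Across the 10 genes, 9 had a fold change below 0, against 44.8% of all genes tested. The median log2 fold change of the 10 was -0.79, against 0.02 over all genes tested. Over all genes, the edgeR quasi-likelihood test called 0% in either direction at an adjusted p under 0.05, with 778 genes at an unadjusted p under 0.05, while DESeq2 called 115 lower and 15 higher. The groups did not overlap in 1 of the 10, Col22a1, lower with praliciguat, and 2.54% of all genes tested were lower in that way (1.32% higher). Nothing is read from these counts, since the genes were chosen with this contrast in view.

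**Figure D2:**
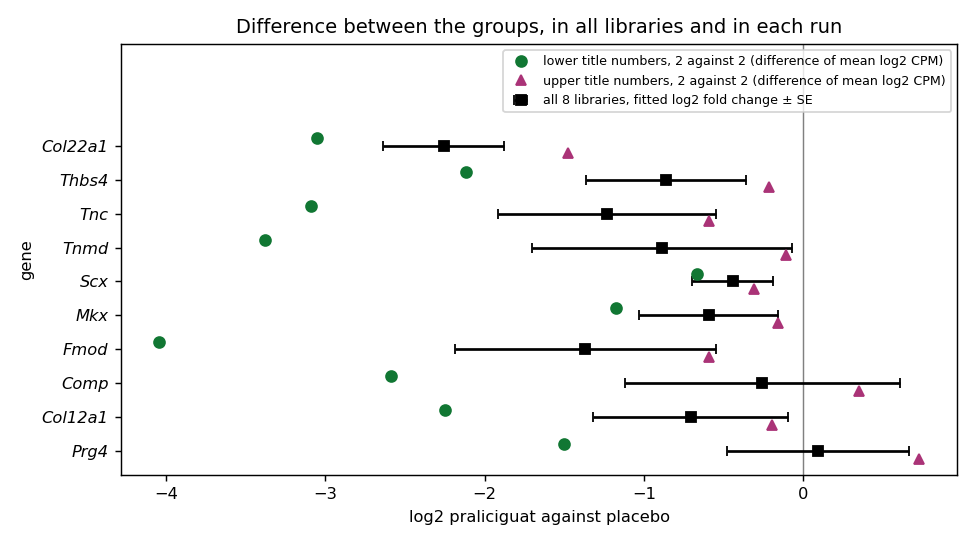
Log2 difference between praliciguat and placebo for each of the 10 genes. Black squares with bars are the fitted fold change ± SE over 8 libraries, green circles the difference within the lower title numbers and purple triangles within the upper title numbers, each from 2 libraries a group. All 10 circles lie left of 0, from -4.04 (Fmod) to -0.67 (Scx), whereas the triangles run from -1.48 (Col22a1) to 0.73 (Prg4). Of all genes tested, 51.3% were below 0 in the lower run and 48.4% in the upper run.

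The spread among praliciguat libraries was larger than among placebo libraries for all 10 genes on the log2 CPM scale. The median SD was 1.42 in praliciguat and 0.383 in placebo, against 0.240 and 0.199 over all genes tested. Of all genes, 65.0% had the larger SD in praliciguat. For each of the 10 genes, praliciguat replicates 1 and 2 both lay below every placebo library. The lowest of all 8 libraries was praliciguat replicate 2 for 7 genes. In contrast, praliciguat replicate 3 was the highest of all 8 for 4 genes (Tnmd, Comp, Col12a1 and Prg4). How many of all genes tested show these library orders was not counted. Nothing about the 10 genes is therefore read from them.

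Within the lower run the median difference of the 10 genes was -2.42, and within the upper run -0.21, where the medians of all genes were -0.011 and 0.011. A fit with group, run and their interaction was made after these values had been seen. Since the runs were noticed from the spread of these genes, its differences within praliciguat are given as a description, without a test. From the lower to the upper run they were 3.37 ± 0.92 for Comp, 3.16 ± 0.85 for Tnmd, 2.95 ± 0.40 for Tnc, 2.91 ± 0.90 for Fmod, 2.45 ± 0.45 for Col12a1 and 2.39 ± 0.30 for Prg4 (log2, SE). They were smaller for Thbs4 (1.75 ± 0.46), Mkx (1.18 ± 0.55), Col22a1 (0.93 ± 0.46) and Scx (0.37 ± 0.36). Between the runs of placebo the differences ran from -0.50 (Col22a1) to 0.33 (Tnc).

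The interaction is the amount by which the run difference was larger in praliciguat than in placebo. Over all genes, edgeR called 0.0147% for it, 2 in number, with 2217 at an unadjusted p under 0.05. For the 10 genes it is given without a test, for the same reason as above. It ran from 0.44 ± 0.51 SE (Scx) to 3.64 ± 1.12 SE (Tnmd). Whether the runs lay farther apart in praliciguat cannot be decided from the genes in which the runs were noticed. The fit also rests on 2 libraries per group and run.

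**Figure D3:**
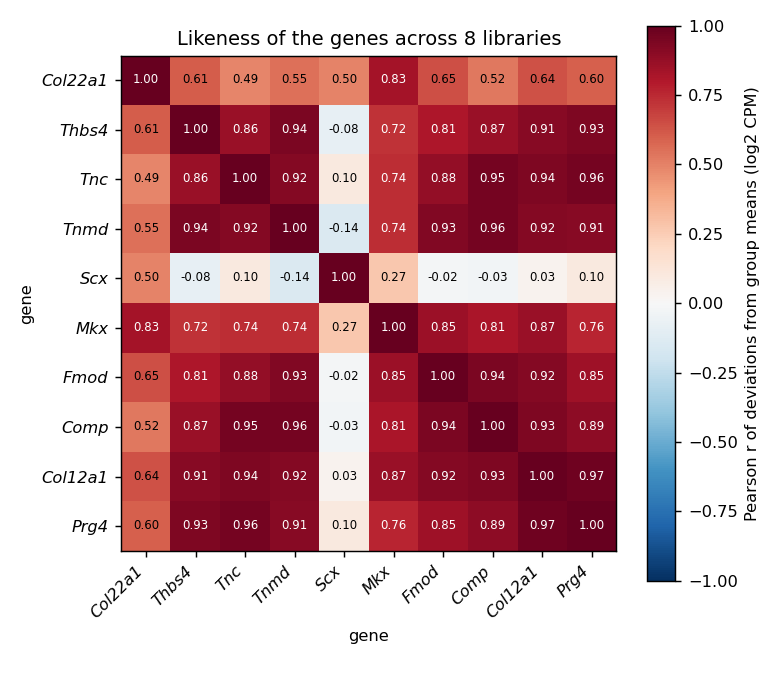
Pearson r between the 10 genes over 8 libraries, computed on deviations of log2 CPM from the group means so that the difference between groups does not enter. Red is positive and blue negative. The 8 genes other than Col22a1 and Scx form a block of r from 0.72 to 0.97, and the Scx row is near 0 against that block.

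Among libraries of the same group, most of the genes followed one another. The 28 pairs of the 8 genes other than Col22a1 and Scx had a median r of 0.91 (0.72 to 0.97) over 8 libraries, after removal of group means. These points share their libraries and depth, and the choice of the 8 was made after their values were seen. Tnmd and Comp had r = 0.96 and Spearman's rho of 0.90, and r = 0.83 without praliciguat replicates 3 and 2, the libraries farthest from the median. Tnc and Prg4 had r = 0.96 and rho of 0.88, and r = 0.90 without the same libraries.

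Col22a1 and Scx had lower r with that block over all 8 libraries. Col22a1 had a median r of 0.60 with the 8 genes (0.49 with Tnc to 0.83 with Mkx). Without placebo replicate 3 and praliciguat replicate 2 its r was 0.74 with Tnc, 0.52 with Tnmd and 0.69 with Mkx. The range of the block without those libraries was not computed, so these values cannot be placed against it. Scx had a median r of 0.0075 with them (-0.14 with Tnmd to 0.27 with Mkx), and its r without praliciguat replicates 4 and 3 was 0.22 with Tnmd and 0.23 with Tnc.

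The genes most like Col22a1 in this measure, over 8 libraries, were Tspyl5 (r = 0.96), Wdr48 (0.95), Pop4 (0.94), Pacsin1 (0.93) and C2cd5 (0.92), and 17 genes in all had r above 0.9. Fras1 and Tigd4, which had been listed as genes of muscle nuclei at the junction, were both at r = 0.91 and are named here after their values were seen, while Ankrd1 of the same list was at r = 0.62. Without placebo replicate 3 and praliciguat replicate 2 they were at r = 0.56 (Fras1), 0.79 (Tigd4) and 0.64 (Ankrd1). For Tnc the closest were Islr, S100a10, App, Vim and Dpysl3 (r = 0.99 each), with 527 genes above 0.9. For Tnmd they were Cd86, Dzip1, Loxl2, Rab3il1 and Osr1 (r = 0.99 each), with 610 genes above 0.9.

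The muscle side of the junction was described by a list of 25 genes, all tested: integrin and talin linkage, dystrophin and its relative utrophin, and genes reported from junctional muscle nuclei. Of these 20 had a fold change below 0 and 5 above, with a median of -0.15 (0.02 over all genes), or -0.08 without praliciguat replicate 3. edgeR called 0 in either direction (0% of all genes), 8 of the 25 stood at an unadjusted p under 0.05, as did 778 of all 13569 genes. DESeq2 called Pgm5, Tigd4 and Fras1 lower, among 115 genes lower in all. The groups did not overlap in 6 of the 25, all lower, which is 24.0% against 2.54% of all genes tested. The list was chosen with earlier results of these data known, so nothing is read from these counts.

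Pgm5, an actin-associated relative of phosphoglucomutase found at adhesion sites, was at 38.1 ± 2.15 CPM (SD, n = 4) in placebo and 25.4 ± 4.24 CPM in praliciguat muscle, a fold change of -0.58 ± 0.12 SE on the log2 scale (edgeR adjusted p = 0.259). Tigd4, a transposon-derived gene listed for junctional nuclei, had 38.9, 24.0, 17.9 and 35.5 CPM in the placebo libraries and 5.85, 1.52, 8.19 and 9.19 CPM in the praliciguat libraries. This was a log2 difference of -2.23 ± 0.48 SE (edgeR adjusted p = 0.295), and within each group its libraries stood in the same order as those of Col22a1. The other 4 that did not overlap are named after their values were seen. Ankrd1, a stretch-responsive protein of the sarcomere, ranged from 64.7 to 105 CPM in placebo and from 2.45 to 32.5 CPM under praliciguat (-2.36 ± 0.66 SE). Fras1, a basement membrane protein, was at 2.68 to 6.57 against 0.816 to 2.54 CPM (-1.59 ± 0.39 SE). Adamts20, a secreted metalloproteinase, was at 7.62 to 9.11 against 1.36 to 6.81 CPM (-1.07 ± 0.42 SE), and Lama2, the laminin chain of the fibre's basement membrane, at 45.2 to 60.3 against 23.9 to 44.5 CPM (-0.62 ± 0.18 SE). Slc24a2 and Col24a1 of the same list are likewise named after their values were seen. Slc24a2, at 2 to 22 expected counts per library, overlapped between the groups (-1.91 ± 0.55 SE). Col24a1, a collagen gene, lay the other way, above 0 (0.25 ± 0.44 SE).

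Several linkage genes of the same list, also named after their values were seen, were close to 0. Itga7, the integrin chain of muscle fibres, had a log2 fold change of -0.02 ± 0.10, Dmd (dystrophin) of -0.05 ± 0.12, Tln2 (talin 2) of 0.11 ± 0.12 and Vcl (vinculin) of 0.07 ± 0.12 (SE). Dmd and Tln2 took opposite signs in the lower and upper runs (0.17 and -0.24, 0.29 and -0.05). Not all linkage genes were so close to 0. Lims1 was at -0.37 ± 0.14 SE, with -0.37 in each run, and Itgb1 at -0.15 ± 0.11 SE.

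**Figure D4:**
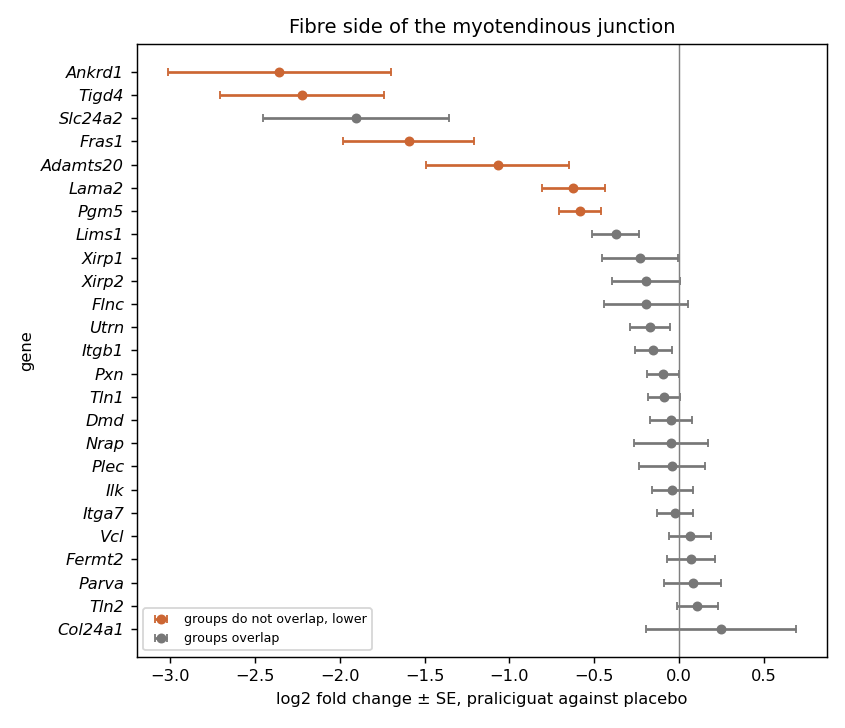
Fitted log2 fold change ± SE, praliciguat against placebo, for the 25 genes of the muscle side of the junction, sorted by value. Orange marks the 6 genes whose groups do not overlap. They run from Ankrd1 (-2.36) to Pgm5 (-0.58). Some linkage genes, such as Itga7 (-0.02) and Vcl (0.07), sit near 0, while Lims1 is at -0.37.

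The sum of slow muscle fibre markers, like Col22a1, was lower in the praliciguat group. The 8 slow fibre genes, all tested and none at 0, summed to 751 to 1870 CPM in placebo. With praliciguat they summed to 256, 439, 323 and 298 CPM in replicates 1 to 4. Replicate 2, which had the lowest Col22a1, thus had the highest slow fibre sum of the praliciguat libraries. Myl3 of this list overlapped between the groups (132 to 215 CPM in placebo, 106 to 162 CPM with praliciguat). Genes of regenerating fibres (6 of 6 tested) summed to 60.4 to 134 against 22.1 to 91.04 CPM, with the maximum of the praliciguat group in replicate 3. Of these 6 genes, 5 had a fold change below 0 and 1 above. Myh3 did not overlap between the groups (21.8 to 55.4 against 1.74 to 11.2 CPM), whereas Myog did (3.66 to 13.1 against 4.58 to 11.7 CPM). The part of these cell types in the result was not tested.

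The other matrix genes of tendon (24 genes tested, of 25 listed symbols, of which Ctgf and Ccn2 name the same gene) did not lie lower as a whole. Of them 11 had a fold change below 0 and 13 above, with a median of 0.07. edgeR called 0 (0% of all genes). At an unadjusted p under 0.05 stood 778 of all 13569 genes and 2 genes of this list. These were Ctgf, a matricellular growth factor modulator (67.9 ± 16.1 against 29.2 ± 16.6 CPM, SD, n = 4; edgeR adjusted p = 0.584), and Tppp3, a marker of the tendon sheath (43.3 ± 3.80 against 27.96 ± 11.8 CPM; edgeR adjusted p = 0.859). By run, 22 of the 24 were below 0 in the lower run (median -0.92) and 7 in the upper run (median 0.47). Over all genes tested these shares were 51.3% and 48.4%. Without praliciguat replicate 3 the median of the list was -0.62.

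Several genes of that list, named after their values were seen, ran as the 8 did. Kera, the proteoglycan keratocan, was at 5.01 to 18.9 CPM in placebo, at 1.29 and 0.505 CPM in praliciguat replicates 1 and 2, and at 32.4 and 5.39 CPM in replicates 3 and 4. Chad, the cartilage and tendon protein chondroadherin, had 5.38 to 14.0 CPM in placebo and 1.33, 0.194, 12.1 and 4.26 CPM under praliciguat. Col1a1, the main chain of the collagen fibril, had 293 to 729.9 CPM in placebo and 192, 138, 1504 and 393 CPM under praliciguat. Other genes of the list did not run so, and Prelp and Lox are likewise named after their values were seen. In praliciguat replicates 1 and 2 both lay within their placebo range. Prelp had 90.4 and 85.9 CPM there (66.7 to 201.9 CPM in placebo) and Lox 24.9 and 26.3 CPM (18.1 to 49.8 CPM in placebo).

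Fibril-associated collagens other than members (7 of 8 listed had a row and were tested) had a median of -0.45, with 6 below 0 and 0 called by edgeR (median -0.78 without praliciguat replicate 3). Those of lowest p were Col9a2 (0.788 ± 0.301 against 0.287 ± 0.168 CPM, SD, n = 4; edgeR adjusted p = 0.597) and Col20a1 (log2 fold change -0.53 ± 0.39 SE). Relatives of tenascin-C and thrombospondin-4 (4 of 6 tested) had a median of 0.03 and 0 calls. That median combined -0.61 in the lower run with 0.54 in the upper run, and it was -0.46 without praliciguat replicate 3 and 0.29 without praliciguat replicate 2. Thbs1 and Thbs2, which restrain angiogenesis, had log2 fold changes of -0.71 ± 0.37 and 0.58 ± 0.56 (SE). Receptors of tenascin-C (9 of 9 tested) had a median of -0.18, 8 below 0 and 0 calls, led by the integrin chains Itga9 (-0.36 ± 0.21 SE) and Itga8 (-0.61 ± 0.38 SE).

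Regulators of the tendon lineage (19 of 22 tested) had 14 fold changes below 0 and 5 above, a median of -0.15 and 0 calls by edgeR. Of the 19, 4 stood at an unadjusted p under 0.05, as did 778 of all 13569 genes. This list, too, was chosen with earlier results of these data known, so nothing is read from these counts. Six2, a homeobox gene of limb connective tissue, was at 5.79 ± 1.87 against 2.71 ± 1.17 CPM (SD, n = 4; edgeR adjusted p = 0.550). Smad3, a mediator of TGF-beta signals, lay the other way at 117 ± 26.7 against 178 ± 36.4 CPM (edgeR adjusted p = 0.602).

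**Figure D5:**
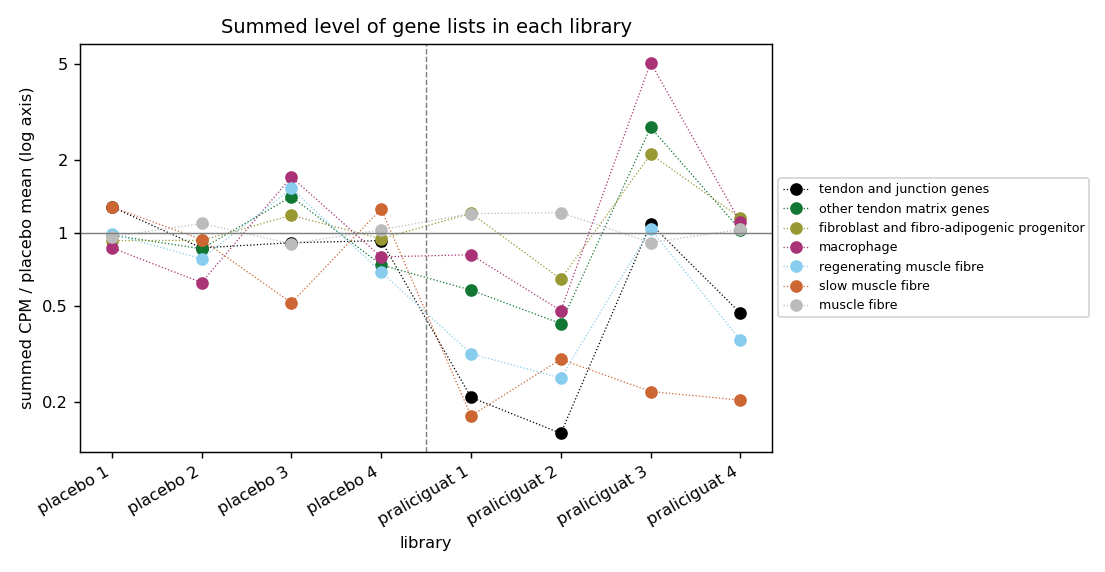
Summed CPM of 7 gene lists in each library, divided by the list's placebo mean, on a log axis. Dotted lines join the values of one list and the dashed line divides the groups. The 10 tendon and junction genes (black) are lowest in praliciguat replicates 1 and 2 (96.7 and 68.7 CPM) and within the placebo range in replicate 3, where macrophage genes (purple) peak, and slow fibre genes (orange) are low in all 4 praliciguat libraries.

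Markers of macrophages and fibroblasts were also highest in praliciguat replicate 3. The 10 tendon and junction genes summed to 592, 401, 421 and 429 CPM in placebo and 96.7, 68.7, 504 and 215 CPM with praliciguat. Macrophage genes (8 of 8 tested, none at 0) summed to 94.1 to 257 CPM in placebo and 72.2 to 763 CPM with praliciguat, with the highest value in replicate 3 and the lowest in replicate 2. Fibroblast and fibro-adipogenic genes (8 of 8) summed to 1111 to 1413 CPM in placebo and 771 to 2527 CPM with praliciguat, again with replicate 3 highest and replicate 2 lowest. Most of that sum is Gsn, the actin-severing protein gelsolin, and the other 7 fibroblast genes summed to 214 to 330 CPM in placebo and to 222, 135, 588 and 314 CPM in praliciguat replicates 1 to 4.

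Of 8 cartilage genes 3 were tested, with sums of 8.27 to 13.2 and 7.31 to 10.5 CPM. Sox9, a regulator of cartilage that was also on the list of tendon regulators, had 2.59 to 7.11 CPM over the 8 libraries and Col9a1, a collagen chain, 1.24 to 8.22 CPM, about the level of Scx. Acan, the proteoglycan of cartilage, had 3 to 9 expected counts per library. Col2a1, the cartilage collagen, had 6 to 20 expected counts in placebo and 0 to 13 with praliciguat. Of 7 bone genes 3 were tested, with sums of 31.9 to 58.05 and 32.01 to 47.6 CPM. Endothelial genes (8 of 8) summed to 519 to 650.2 and 363 to 551 CPM, smooth muscle and pericyte genes (8 of 8) to 871 to 1338 and 728 to 1065 CPM, Schwann cell genes (8 of 8) to 155 to 340.4 and 103 to 209 CPM, and fat cell genes (6 of 6) to 496 to 1387 and 768 to 1852 CPM. The fat cell sum, too, was highest in praliciguat replicate 3 (1852 CPM), followed by praliciguat replicate 4 (1609 CPM). Of 6 skin genes 1 was tested, at 1.40 to 2.63 and 1.49 to 1.73 CPM. The part of these cells in the values of the tendon genes was not tested.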

How the data were processed

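The authors deposited 1 RSEM table per library; RSEM 1.2.28, STAR 2.5.3a, Trimmomatic, FastQC and the mm10 build are named in the submitters' processing notes, and a stranded mRNA kit in the labels' protocols. The deposited expected count is RSEM's estimated count of reads per gene, per the file headers. The deposited TPM is scaled by length, per the file headers. Deposited FPKM values were not used here. The deposited effective length, in bases, served as an offset in 1 alternative.

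Expected counts were rounded, filtered (filterByExpr), TMM-scaled and tested by edgeR 4.0.16 under R 4.3.3 (quasi-likelihood F test, robust dispersion), group as the only term, Benjamini-Hochberg adjustment over 13569 genes and a threshold of 0.05. CPM uses the TMM-scaled library size; log2 CPM has a prior count of 2. A count of 0 allows up to 3 counts, 0.0875 to 0.134 CPM by library, for counting error only. Chi-square per degree of freedom between libraries of a group was 21.9 to 136, so no pair differed by counting error alone. Whether libraries came from the same mouse cannot be told from this value. The test was checked on simulated counts.

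Replicates were numbered in accession order. The 10 genes and all lists were chosen with earlier results of these data known. All 10 genes are named, and of each of 6 related lists (other tendon matrix, tendon regulators, muscle side of the junction, fibril-associated collagens, tenascin and thrombospondin relatives, tenascin-C receptors) the 2 of lowest p when none was called, and the 5 genes most like Col22a1, Tnc and Tnmd (symbols of predicted genes and small RNAs passed over). The 12 marker lists are given as summed CPM of their tested genes. Alternatives used DESeq2 1.42.0 and limma 3.58.1. Fits by run and without 2 praliciguat libraries were chosen after seeing the data.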

Additional observations from a re-analysis of the deposited data

Results flagged for a closer look

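Samples far from the others of their group were sought in 58 sets of 4 values (the 10 genes and 19 summed lists, in each group), and 4 were found. Chance flags about 1 in 20. The summed level of the 10 tendon and junction genes was 592 CPM in placebo replicate 1, against 401 to 429 CPM in the other placebo libraries. In praliciguat replicate 3 macrophage genes summed to 763 CPM, against 72.2 to 167 CPM in the other praliciguat libraries, and genes of regenerating fibres to 91.04 CPM, against 22.1 to 31.6 CPM. In placebo replicate 3 fibroblast genes summed to 1413 CPM, against 1111 to 1131 CPM.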

How the results depend on the processing

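Over all genes, DESeq2 called 15 genes higher and 115 lower, limma-voom 0 and 2, the run as a block 0 and 3, and an adjusted p under 0.1 gave 0 and 11. Leaving out 1 library gave 0 higher and 0 to 5 lower, the 5 without placebo replicate 3. Chosen after seeing the data, the fit without praliciguat replicates 3 and 4 called 6 higher and 79 lower, without praliciguat replicates 1 and 2 it called 6 and 16, and the lower run alone 159 and 205. The upper run alone called 0 and 0. These libraries were left out after their values for the 10 genes were seen, so the counts support nothing about the 10. The log2 fold change of Col22a1 was below 0 under all 23 alternatives (-3.04 to -1.59), as were those of Thbs4 (-2.16 to -0.06), Tnc (-3.36 to -0.43), Fmod (-3.54 to -0.48) and Scx (-0.73 to -0.23), and that of Mkx in the 22 that gave a value (-1.31 to -0.15). Those of Tnmd (-3.44 to 0.21), Comp (-2.77 to 0.59), Col12a1 (-2.41 to 0.02) and Prg4 (-1.56 to 0.82) took both signs. The interaction of group and run, which called 2 of all genes, called 0 under 3 other settings. Replicate numbers pair nothing, so the run was the block used. Low counts limit Mkx, and 4 libraries a group limit all values. The cause of these changes was not tested.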

Other observations

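Some low genes of the lists stood out by library and are given as values. Tnn, which encodes tenascin-W, had 14 and 75 expected counts in placebo replicates 2 and 4 and at most 6 in the others. Ibsp, which encodes bone sialoprotein, had 42 and 82 expected counts in those same libraries and at most 5 in the others. Krt5 and Krt14, keratins of basal skin epithelium, had 71 and 26 expected counts in praliciguat replicate 2 and at most 3 in the others. Mstn, which encodes myostatin, ran against the tendon genes: it was at 31.5 to 65.3 CPM in placebo and at 106, 80.3, 22.1 and 44.8 CPM in praliciguat replicates 1 to 4.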
